A study of Mus musculus with 3 samples.

Results

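The circadian clock genes were followed here in nuclei of the mouse lumbar spinal cord, as 10 genes chosen by symbol from the 31040 genes of the UMI table: Nr1d1, Nr1d2, Dbp, Tef, Hlf, Per1, Per2, Per3, Clock and Rora. A UMI (unique molecular identifier) marks 1 captured RNA molecule, and the UMIs of a gene were summed over the nuclei of each mouse and cell type. The list was drawn up with earlier results of these data known, and Rora was selected on its lower level in SOD1G93A astrocytes, so that value is given as a description with no test of its own. The study compared SOD1G93A mice (B6.Cg-Tg(SOD1*G93A)1Gur/J, which carry many copies of a mutant human SOD1 transgene and model amyotrophic lateral sclerosis) with C57BL/6J wild-type (WT) littermates, all 90 days old, with 3 females and 3 males of each genotype. Each of the 3 pools, called A, B and C, joined 1 mouse of every sex and genotype, and nuclei were assigned to mice by nuclear hashing antibodies. Per the study, the same antibody marked the same group of sex and genotype in every pool, so antibody and group cannot be told apart. The mice lived under an alternating light and dark cycle, and the hour at which each one was dissected is not given in the sources used here.

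The molecular clock is a feedback loop in which CLOCK (or NPAS2) with BMAL1, the product of Arntl, switches on genes through E-box sequences. The PER and CRY proteins then hold back that pair, REV-ERB alpha and beta (Nr1d1 and Nr1d2) repress Arntl through a site shared with the activator ROR alpha (Rora), and the PAR bZIP factors DBP, TEF and HLF pass the rhythm on through D-box sites. In most tissues Dbp and Nr1d1 peak in antiphase to Arntl, so that the level of these genes in a frozen sample depends on the hour at which it was taken.

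In total 14662 nuclei with 206486779 UMIs were analysed, with 548 to 2259 nuclei and 6411715 to 36668441 UMIs per mouse. Neurons had 268 to 1565 nuclei per mouse, astrocytes 45 to 250, oligodendrocytes 44 to 387, endothelial cells 21 to 65 and Schwann/meningeal cells 13 to 187. Microglia (5 to 41), oligodendrocyte precursor cells (OPC, 2 to 26) and motor neurons (1 to 11) were sparse, and ependymal cells and fibroblasts were absent from 1 and 2 mice. Pools shared 15 cell barcodes, 0.102% of all barcodes. The endothelial type also held mural cells: Flt1 and Cldn5, which mark endothelial cells, and Pdgfrb, which marks mural cells, summed to 5499 to 7567 CPM (UMI counts scaled to a common library total) over the 12 mice, and 5 mural markers to 3780 to 5836 CPM. Nuclei labelled microglia had a median of 46927 UMIs, against 12864.5 in neurons and 5338 in astrocytes. Their markers Cx3cr1, Csf1r and Ptprc summed to 39.8 to 122.7 CPM, and 3 motor neuron markers to 22.8 to 117.8 CPM in the same nuclei. Levels given for microglia may therefore include RNA of other cells, which was not tested.

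Per3, a paralogue of Per1 and Per2, was listed at 0 UMIs in every nucleus, which left 9 genes with values. In the GENCODE vM21 annotation of GRCm38, the build of the authors' mm10 alignment, Per3 (chr4:151003652-151044665, minus strand) lies wholly inside Camta1 on the same strand. Of 353 coding genes of the table that lie inside another coding gene on the same strand, 352 had no UMI (99.7%), against 2212 of 21385 other coding genes (10.3%). The zeros of Per3 are therefore not read as a level. On the opposite strand Nr1d1 (chr11:98767932-98775333) overlaps Thra, Dbp (chr7:45705088-45710203) overlaps Sphk2, Tef (chr15:81802421-81826863) overlaps Gm17597 and Rora (chr9:68653786-69388246) overlaps Gm15511. On its own strand Clock (chr5:76209868-76304792) overlaps the pseudogene Ube2n-ps1 and Gm43658, neither of which contains it. The other members are Nr1d2 (chr14:18204054-18239127), Hlf (chr11:90336536-90390895), Per1 (chr11:69095217-69109960) and Per2 (chr1:91415982-91459324).

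The bases just before their start sites were searched for the 3 clock sequences named above: the E-box CACGTG, the D-box TTATGTAA and AGGTCA, the half-site bound by the ROR and REV-ERB receptors. Both strands of the RefSeq promoter windows (GRCm38.p6, 250 bases before to 50 after the start) were read, and of 32851 such windows 7.15% held the E-box, 0.938% the D-box and 16.3% the half-site. Tef held an E-box before both of its start sites, Per1 held an E-box and a half-site, and Nr1d2 held a half-site; Nr1d1 is shown beside them as a gene that, like Tef, was called between sexes in endothelial cells but held none of the 3 in its window. Bases -200 to -51 from each start are printed 5′ to 3′ along the gene's strand, with the matches in capitals (TGACCT is the half-site on the other strand).
Tef, first start (chr15:81802473-81802622, plus strand): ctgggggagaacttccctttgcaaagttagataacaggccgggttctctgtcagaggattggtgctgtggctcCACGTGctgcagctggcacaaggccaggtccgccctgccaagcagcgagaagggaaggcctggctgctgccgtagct
Tef, second start (chr15:81811214-81811363, plus strand): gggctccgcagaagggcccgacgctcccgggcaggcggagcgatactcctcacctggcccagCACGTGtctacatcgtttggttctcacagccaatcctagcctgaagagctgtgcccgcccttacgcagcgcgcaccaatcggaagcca
Per1 (chr11:69098749-69098898, plus strand): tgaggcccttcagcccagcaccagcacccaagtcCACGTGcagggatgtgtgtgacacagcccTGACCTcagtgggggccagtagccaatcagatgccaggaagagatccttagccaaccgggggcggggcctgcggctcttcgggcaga
Nr1d2 (chr14:18239157-18239306, minus strand): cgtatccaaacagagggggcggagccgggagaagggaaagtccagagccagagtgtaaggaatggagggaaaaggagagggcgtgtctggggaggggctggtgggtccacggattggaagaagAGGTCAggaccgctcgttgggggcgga
Nr1d1 (chr11:98775428-98775577, minus strand): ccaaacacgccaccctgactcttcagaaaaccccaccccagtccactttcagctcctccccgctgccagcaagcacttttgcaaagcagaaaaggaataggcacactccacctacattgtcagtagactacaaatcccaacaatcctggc
Of the others, the third of 3 start windows of Clock held a half-site and the window of Per3 held 2 D-boxes, while the windows of Dbp, Hlf and Rora, the second of Per1 and the other 2 of Clock held none of the 3 sequences. Per2 was not matched to a window. These matches are letters in a short window and do not show binding.

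The first comparison asked where in the cord each gene is read out. Among the 8 types present in every mouse, to which the levels below are limited, endothelial nuclei had the highest mean of Nr1d1, Nr1d2, Dbp, Hlf and Per1, followed by astrocytes and Schwann/meningeal cells for all of these but Per1, and motor neurons had the lowest mean of Nr1d1, Nr1d2, Dbp, Tef, Hlf and Per2. Levels are CPM on the UMI total of the same mouse and type, given as mean ± SD over 12 mice. Genes are not compared with each other on this scale. Schwann/meningeal nuclei had a median of 1584 UMIs, and the astrocyte markers Aqp4, Aldh1l1 and Gfap summed to 371 to 923 CPM there on scaled totals. In astrocytes these markers summed to 963 to 1165 CPM in WT and 1673 to 2255 in SOD1G93A mice. The part of astrocyte RNA in the Schwann/meningeal levels was not tested. Fibroblasts, with nuclei of 10 mice and 0 to 11 nuclei per mouse, had higher means of several genes with a wide spread, such as 232.2 ± 226.6 CPM of Hlf, and were left out of the order, as were ependymal cells. Neighbouring types in this order were compared by a two-sided exact paired permutation test (sign flips over mice) of log2(CPM + 1), adjusted by Benjamini-Hochberg over 63 neighbour pairs, and 16 pairs passed 0.05. With scaling factors over all sums (TMM) in place of plain CPM 7 pairs passed, so the order rests in part on the scale.

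**Figure D1:**
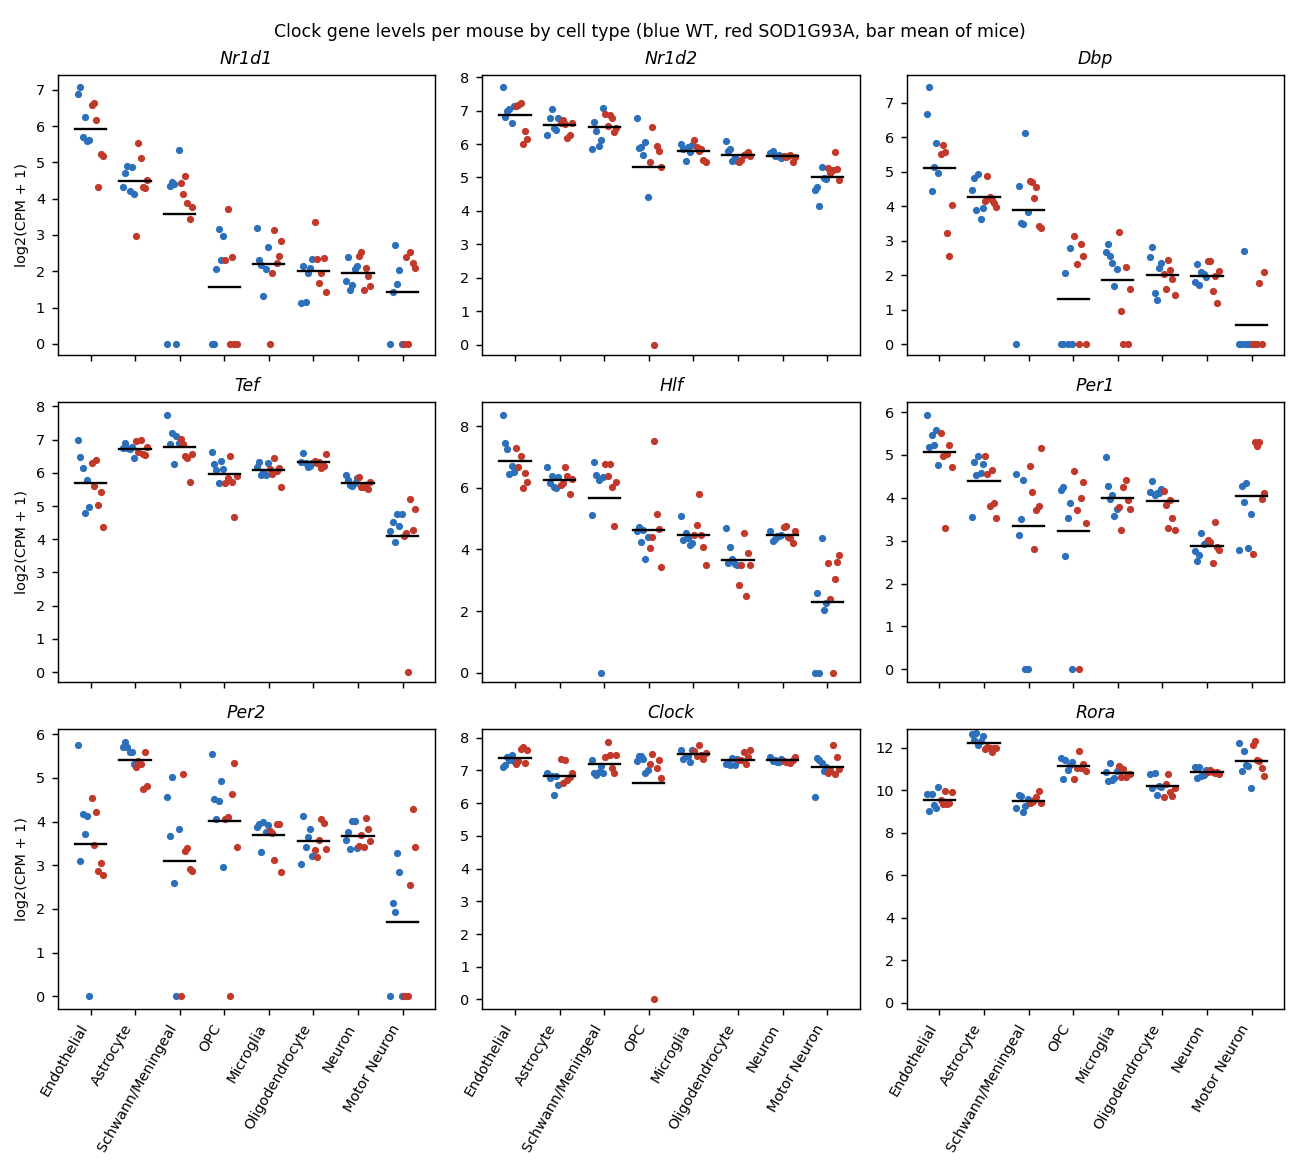
Level of 9 clock genes, as log2(CPM + 1) on the vertical axis, in each of 12 mice (points; blue WT, red SOD1G93A) for 8 cell types, with the mean as a bar. Nr1d1 stood highest in endothelial nuclei, at 68.6 CPM on average, and Rora in astrocytes, at 4863 CPM; points at 0 are mice with no UMI of the gene in that type.

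Among the repressors of the loop, Nr1d1 stood at 68.6 ± 35.5 CPM in endothelial cells, 23.4 ± 9.85 in astrocytes and 16.5 ± 10.7 in Schwann/meningeal cells. In neurons it stood at 2.99 ± 1.05 CPM and in motor neurons at 2.38 ± 2.04. Endothelial cells were above astrocytes in 11 of 12 mice, by 1.44 ± 1.02 (SD) on the log2 scale (exact permutation test, adjusted p = 0.0077), and stayed so with TMM factors (1.19, adjusted p = 0.012). No other neighbours differed for Nr1d1 (adjusted p 0.16 or above).
Its paralogue Nr1d2 was spread more evenly, from 121.5 ± 39.7 CPM in endothelial cells and 95.3 ± 17.3 in astrocytes to 49.0 ± 2.88 in neurons and 32.7 ± 9.16 in motor neurons. The step from Schwann/meningeal cells (92.4 ± 23.9 CPM) down to microglia (55.4 ± 8.01) passed the test, and so did the step from neurons to motor neurons (adjusted p = 0.010 and 0.0077, exact permutation test). With TMM factors no neighbours differed for Nr1d2.

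Of the PAR bZIP outputs, Dbp stood at 49.2 ± 47.1 CPM in endothelial cells, 19.7 ± 17.4 in Schwann/meningeal cells and 19.1 ± 6.12 in astrocytes. In neurons it was 3.03 ± 0.93 CPM and in motor neurons 4 UMIs were counted in all. The 3 highest types did not differ from each other in order (adjusted p 0.13 or above), and astrocytes stood above microglia in 12 of 12 mice (2.40 ± 1.11 on the log2 scale, exact permutation test, adjusted p = 0.0051).
Hlf stood at 128.5 ± 72.3 CPM in endothelial cells, 76.5 ± 14.5 in astrocytes and 70.6 ± 34.8 in Schwann/meningeal cells, and fell to 12.6 ± 5.87 in oligodendrocytes and 6.48 ± 6.06 in motor neurons. Endothelial cells were above astrocytes in 10 of 12 mice (0.61 ± 0.59 on the log2 scale, exact permutation test, adjusted p = 0.020; with TMM factors 0.36, adjusted p = 0.21).
Tef had another order: 114.9 ± 41.5 CPM in Schwann/meningeal cells, 105.8 ± 12.1 in astrocytes, 79.0 ± 7.98 in oligodendrocytes, 57.9 ± 31.6 in endothelial cells and 51.0 ± 4.97 in neurons. The first 2 did not differ (adjusted p = 0.87), astrocytes were above oligodendrocytes in 12 of 12 mice and neurons above motor neurons in 12 of 12 (exact permutation test, adjusted p = 0.0051 for each).

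Per1 and Per2, the repressors of the PER family, peaked in different types. Per1 stood at 35.5 ± 13.0 CPM in endothelial cells against 21.2 ± 7.40 in astrocytes (higher in 10 of 12 mice, exact permutation test, adjusted p = 0.027; with TMM factors adjusted p = 0.21), and at 6.46 ± 1.45 in neurons. Per2 stood at 42.5 ± 9.33 CPM in astrocytes against 20.5 ± 13.1 in OPC, the next of the 8 types (higher in 12 of 12 mice, adjusted p = 0.0051), 14.7 ± 13.7 in endothelial cells and 12.0 ± 2.40 in neurons.
Clock, the DNA-binding activator, had a gradual order. Over the 8 types its means lay between 114.4 ± 25.0 CPM in astrocytes and 179.1 ± 18.1 CPM in microglia. No neighbours in its order differed (exact permutation test, adjusted p 0.31 or above). Neighbours are the closest types by mean, and the ends of the order were not tested against each other.
Rora, an activator of Arntl, stood at 4863 ± 1047 CPM in astrocytes, 2912 ± 1309 in motor neurons, 1868 ± 195 in neurons, 782.8 ± 195.9 in endothelial cells and 739.8 ± 140.5 in Schwann/meningeal cells. Astrocytes stood above motor neurons in 10 of 12 mice, and the steps from microglia to oligodendrocytes and from these to endothelial cells held in 12 of 12 (exact permutation test, adjusted p = 0.015, 0.0051 and 0.0051).

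Among the 9 neuron classes, 4 of 72 neighbour pairs passed the same test, all for Hlf and Rora. Hlf stood at 42.6 ± 8.19 CPM in dorsal inhibitory neurons (labelled DI), 28.4 ± 3.18 in dorsal excitatory neurons (DE) and 17.0 ± 7.15 in mid inhibitory neurons (MI), with 8.94 to 10.7 CPM on average in the 4 ventral classes. DI was above DE in 12 of 12 mice and DE above MI in 11 of 12 (exact permutation test, adjusted p = 0.012 and 0.026). Rora was highest in DE, at 2333 ± 220 CPM, above the neurons of unclear class (1875 ± 217) in 12 of 12 mice, and lowest in the ventral cholinergic neurons other than motor neurons (VC), at 1113 ± 311, below MI in 12 of 12 (adjusted p = 0.012 for each). Dbp was counted at 4.92 CPM in DI and 4.56 in DE and at 1.19 to 2.93 in the other 7 classes, where single mice often had no UMI.

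The second comparison was that of SOD1G93A and WT mice, fitted with limma-voom over all genes of each cell type with sex, genotype and pool in the model. It gave 55 tests of the members, and 1 of them passed a false discovery rate (FDR) of 0.1, which 0.568% of the 68984 tests over all genes and types passed. That call was Rora in astrocytes, for which it was selected. At an unadjusted p under 0.05 there were 5 of 55, all lower in SOD1G93A mice, against 7.18% of all tests in either direction; 1 of the 5 is Rora in astrocytes, which the selection used, and the other 4 are Per2 in astrocytes, Dbp and Hlf in endothelial cells and Per1 in oligodendrocytes. Rora in astrocytes included, 37 of 55 values lay below 0 with a median of -0.07, where the median over all genes was 0.0033.

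Rora stood at 4713 to 7461 CPM (median 6083, TMMwsp-scaled) in the 6 WT mice and at 3621 to 4293 (median 4037) in the 6 SOD1G93A mice. All SOD1G93A mice were below all WT mice, in all 6 pairs of the same sex and pool. The log2 difference was -0.56 (SE 0.10), -0.65 (SE 0.15) in females and -0.48 (SE 0.14) in males. For comparison, 0.909% of the 9347 genes tested in astrocytes were called lower.
The 5 astrocyte sub-clusters of the deposited tables differed in Rora, from 2648 ± 694 CPM in sub-cluster 3 to 7560 ± 1148 in sub-cluster 1 (WT mice, n = 6). Within a sub-cluster the SOD1G93A mean was 0.753 to 0.964 of the WT mean, and the pairs below WT numbered 4 or 5 of 6. Over all astrocytes the ratio of means was 0.707. The 0.964 is that of sub-cluster 2, where the SOD1G93A mean was 4632 ± 2731 CPM and the highest SOD1G93A mouse stood at 10143. Single mice had as few as 3 nuclei in sub-clusters 2 and 4. Sub-cluster 1, the one with the most Rora, made up 26.9 to 42.6% of a WT mouse's astrocyte nuclei and 4.81 to 21.6% of a SOD1G93A mouse's, lower in all 6 pairs. Sub-cluster 3, with the least Rora, made up 7.56 to 12.0% in WT and 13.4 to 31.1% in SOD1G93A mice, higher in all 6 pairs. Sub-clusters were drawn from the same expression values, so these shares are descriptive.
The astrocyte markers Aqp4, Aldh1l1 and Gfap summed to 963 to 1165 CPM in WT and 1673 to 2255 in SOD1G93A astrocytes. Gfap and Aqp4 rose, by 1.12 (SE 0.11) and 0.80 (SE 0.11) on the log2 scale (limma, FDR = 7.3e-07 and 0.00013), and Aldh1l1 lay at -0.20 (SE 0.14, limma, FDR = 0.57). The oligodendrocyte marker Mbp was also higher there, by 0.50 on the log2 scale (SE 0.11, limma, FDR = 0.025). The part of either in the Rora difference was not tested.

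**Figure D2:**
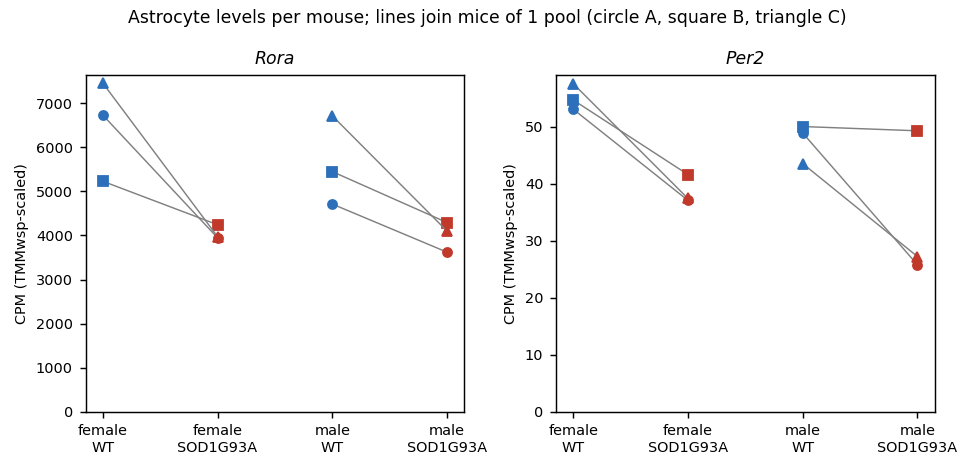
Rora and Per2 in astrocytes of each mouse, in TMMwsp-scaled CPM from 0, by sex and genotype; a line joins the WT and SOD1G93A mouse of the same sex and pool. All 6 lines fall for both genes, and for Rora the 2 genotypes do not overlap.

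Per2 in astrocytes also had lower values in SOD1G93A mice and did not pass the FDR. It stood at 43.6 to 57.6 CPM (median 51.6) in WT and 25.8 to 49.3 (median 37.3) in SOD1G93A mice, lower in all 6 pairs, with a log2 difference of -0.51 (SE 0.18, limma, FDR = 0.20). Without the SOD1G93A male of pool B, the highest of its group, the difference was -0.66 (limma, FDR = 0.072). Per2 passed in only this 1 of the 12 fits that each left out 1 mouse. Over those 12 fits the difference ran from -0.66 to -0.41 and the limma FDR from 0.072 to 0.52.
The other 7 members tested in astrocytes lay between -0.34 and 0.16 on the log2 scale. Nr1d1 and Dbp were at 0.06 and -0.05.

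In endothelial cells 6 of 8 members had lower values in SOD1G93A mice and none passed. Dbp stood at 21.9 to 180.1 CPM (median 47.0) in WT and 5.13 to 57.1 (median 31.2) in SOD1G93A mice, with a log2 difference of -1.29 (SE 0.49, limma, FDR = 0.98), and was lower in 5 of 6 pairs. Without the WT female of pool C, which had the lowest Dbp of the WT mice, the difference was -1.71 and passed (limma, FDR = 0.094). Dbp passed in only this 1 of the 12 fits that each left out 1 mouse. Over those 12 fits the difference ran from -1.71 to -0.96 and the limma FDR from 0.094 to 0.9999. Hlf and Per1 were lower in all 6 pairs (-0.51, SE 0.20, and -0.55, SE 0.28; limma, FDR = 0.98 for each). Clock and Rora lay at 0.16 and 0.05. By sex, the differences were -2.02 (SE 0.80) in males and -0.56 (SE 0.54) in females for Dbp, -0.90 (SE 0.36) and -0.07 (SE 0.32) for Nr1d1, and -0.77 (SE 0.26) and 0.04 (SE 0.25) for Nr1d2. For Hlf they were -0.34 (SE 0.28) and -0.67 (SE 0.28), and for Per1 -0.25 (SE 0.34) and -0.84 (SE 0.44). The male minus female difference was -0.82 (SE 0.36, limma, FDR = 1.0) for Nr1d2. Glucocorticoid-responsive genes, which follow the daily hormone cycle, summed to 610 to 1357 CPM (median 1014) in SOD1G93A and 934 to 1396 (median 1151) in WT endothelial cells, and all 5 tested had lower values in SOD1G93A mice, with a median of -0.30 and none past the FDR. All 5 tested were also lower in SOD1G93A microglia, oligodendrocytes and Schwann/meningeal cells, with medians of -0.20, -0.33 and -0.28 and none past the FDR. Their part in the values of the members was not tested. In neurons, with the most UMIs, the 9 members lay between -0.12 and 0.20.
No member passed for a difference of the genotype effect between sexes (0 of 55 tests with limma, where 0.0058% of all tests passed). At an unadjusted p under 0.05 there were 3, against 3.11% of all tests: besides Nr1d2 in endothelial cells, Per1 in microglia and Nr1d2 in oligodendrocytes had male minus female differences of 0.98 (SE 0.47) and 0.52 (SE 0.24). By edgeR and DESeq2 the count was also 0.

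The third comparison was that of females and males. It found 3 of 55 member tests past the FDR, where 0.159% of all tests passed, and 11 at an unadjusted p under 0.05, against 5.56% of all tests. All 3 were in endothelial cells, with the female level above the male one for Nr1d1, Hlf and Tef. Earlier results of these data had already named these 3, which are also among the 11, so neither count is independent support for a sex difference. What follows gives the mice behind the 3 genes and the rest of the loop. Of the 7637 genes tested in endothelial cells 0.118% were called higher in females.
Nr1d1 stood at 53.7 to 138.3 CPM (median 101.1) in the 6 females and 19.9 to 78.7 (median 43.6) in the 6 males. The log2 difference was 1.19 (SE 0.24, limma, FDR = 0.036), and the female was higher in all 6 pairs of the same genotype and pool. The 2 lowest females, the WT and the SOD1G93A mouse of pool C, lay within the male range.
Tef stood at 49.97 to 134.2 CPM (median 85.0) in females and 20.1 to 56.0 (median 33.0) in males, a log2 difference of 1.26 (SE 0.26, limma, FDR = 0.036). The female was higher in 6 of 6 pairs, and only the SOD1G93A female of pool B fell within the male range.
Hlf stood at 107.1 to 351.0 CPM (median 160.7) in females and 66.3 to 107.2 (median 90.6) in males, a log2 difference of 0.99 (SE 0.20, limma, FDR = 0.036), with 6 of 6 pairs higher. The same SOD1G93A female and the highest male overlapped by less than 1 CPM.
Dbp and Nr1d2 pointed the same way and did not pass. Dbp stood at 21.9 to 180.1 CPM (median 53.9) in females and 5.13 to 58.5 (median 24.4) in males (log2 difference 1.75, SE 0.48, limma, FDR = 0.46, higher in 5 of 6 pairs). Nr1d2 stood at 114.8 to 219.4 CPM (median 147.5) in females and 66.3 to 149.6 (median 94.8) in males (0.65, SE 0.18, limma, FDR = 0.38, higher in 5 of 6 pairs). At an unadjusted p under 0.05, 5 of 8 members thus stood in endothelial cells against 5.84% of all genes there. These 5 include the 3 genes that earlier results had named, so this share is a description and not independent support.
Per2 had too few UMIs to be tested and stood at 7.83 to 56.8 CPM (median 18.5) in females and 0 to 17.1 (median 7.16) in males, higher in 5 of 6 pairs. Per1, Clock and Rora lay at 0.02 (SE 0.28), -0.13 (SE 0.16) and 0.04 (SE 0.15), with 3 of 6 pairs higher for each. Over the 8 members tested, the 3 named earlier included, the median was 0.82, and the median over all genes was -0.0040.

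**Figure D3:**
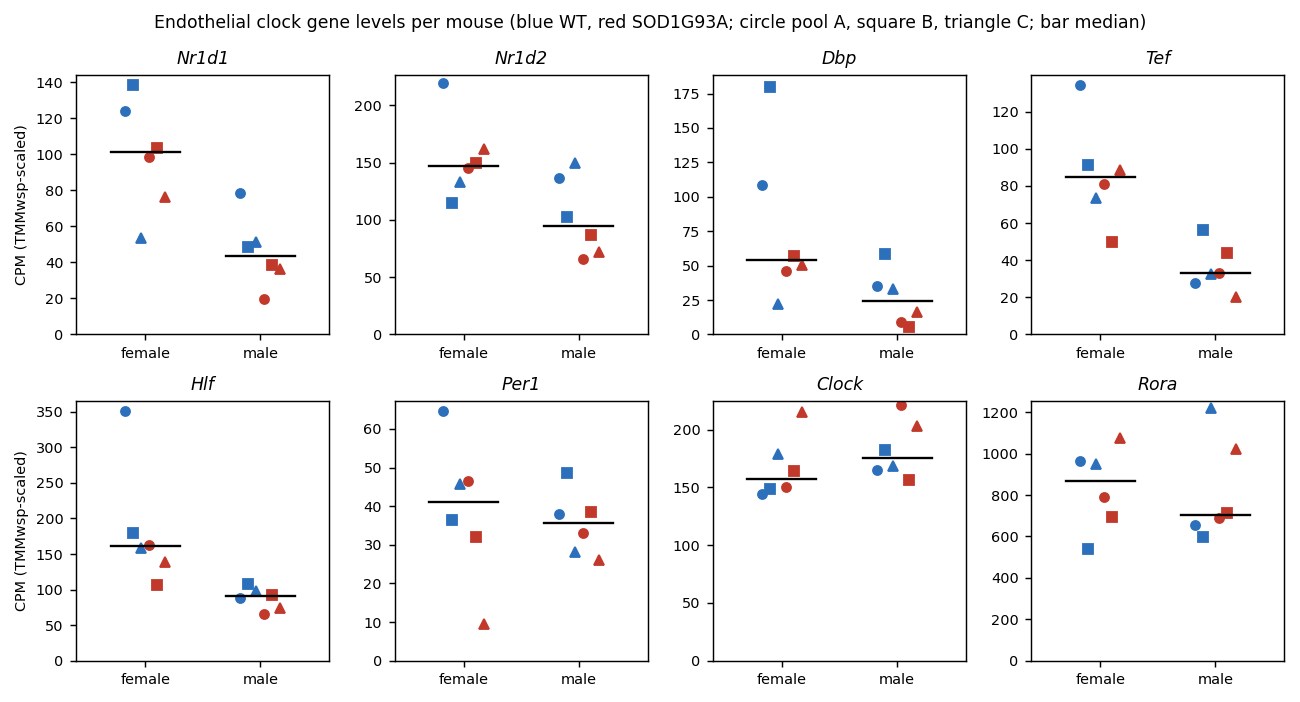
Level of 8 clock genes in endothelial nuclei of each mouse, in TMMwsp-scaled CPM from 0, by sex (blue WT, red SOD1G93A; circle, square and triangle are pools A, B and C; bar, median). Nr1d1, Tef, Hlf and Dbp had female medians of 101.1, 85.0, 160.7 and 53.9 against male medians of 43.6, 33.0, 90.6 and 24.4, while Per1, Clock and Rora overlapped throughout.

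The 3 calls depended on single mice and on the model. All 3 were lost without the WT female of pool A, without the SOD1G93A female of pool C, without the SOD1G93A male of pool A, without the pool term, or with a minimum count of 30, and without the WT male of pool A Tef and Hlf were lost and Nr1d1 passed. Nr1d1 was also lost without the female of pool B of either genotype or the male of pool B of either genotype, and Tef without the SOD1G93A male of pool C. The log2 differences themselves stayed between 0.96 and 1.40 for Nr1d1, 1.05 and 1.52 for Tef and 0.76 and 1.09 for Hlf. Over these alternatives the FDR ranged from 0.0074 to 0.33 for Nr1d1, 0.019 to 0.32 for Tef and 0.017 to 0.22 for Hlf. With edgeR all 3 passed (FDR 0.094 to 0.097), and with DESeq2 Tef, Hlf and Dbp passed (FDR 0.066 to 0.067) while Nr1d1 had an FDR of 0.11. Without the WT female of pool C, which had the lowest Dbp of the females, Dbp passed as well (1.97, limma, FDR = 0.0038). Dbp passed in only this 1 of the 12 fits that each left out 1 mouse, and their limma FDR ran up to 0.999.
Of the markers of the cells themselves, Flt1, Cldn5 and Pdgfrb, of which Pdgfrb marks mural cells, summed to 5499 to 7117 CPM in females and 6019 to 7567 in males. All 3 had lower values in females, with a median log2 difference of -0.10. The 5 mural markers summed to 3780 to 5727 CPM in females and 4142 to 5836 in males. The further endothelial markers Pecam1, Slco1a4, Abcb1a and Mecom summed to 8155 to 11747 CPM (median 9393) in females and 7086 to 10265 (median 8029) in males, with 3 of 4 higher in females. No marker tested there passed, and their part in the sex difference was not tested. Glucocorticoid-responsive genes summed to 610 to 1396 CPM in females and 620 to 1325 in males, with 0 of 5 tested past the FDR. The 8 immediate early genes, which respond to recent activity, summed to 173 to 360 CPM (median 226) in females and 213 to 507 (median 332) in males, and the 3 that could be tested had lower values in females, with a median of -0.34 and none past the FDR. Their part in the sex difference was not tested. The part of dissection hour was not tested, as no hour is given.

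Of 15 other clock genes, among them the BMAL1 gene Arntl, Npas2, Cry1, Cry2 and Csnk1e, 14 could be tested in at least 1 type, and 0 of their 76 tests passed for sex, with 7 at an unadjusted p under 0.05 by limma, against 5.56% of all tests.
In endothelial cells 7 of the 8 that could be tested had lower values in females, with a median log2 difference of -0.42, among them Arntl and Npas2, the partner and the paralogue of CLOCK. Arntl stood at 12.9 to 79.2 CPM (median 42.9) in females and 55.8 to 128.3 (median 77.2) in males, lower in the female in 5 of 6 pairs (log2 difference -0.96, SE 0.31, limma, FDR = 0.60).
Npas2 stood at 0 to 25.0 CPM (median 7.81) in females and 5.07 to 60.3 (median 31.2) in males, lower in 6 of 6 pairs (-1.69, SE 0.59, limma, FDR = 0.63). Csnk1e, a kinase of the PER proteins, was also lower in the female in 6 of 6 pairs (-0.49, SE 0.20, limma, FDR = 0.80). Cry2, a repressor beside the PER proteins, had too few UMIs to be tested and was higher in the female in 6 of 6 pairs, at 12.7 to 40.6 against 11.1 to 20.3 CPM.

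In other types no member passed for sex. Rora in oligodendrocytes stood at 848 to 1899 CPM (median 1487) in females and 867 to 1205 (median 1043) in males. It was higher in the female in 4 of 6 pairs (0.40, SE 0.15, limma, FDR = 0.91). In astrocytes all 9 values lay above 0, from 0.05 to 0.46 with a median of 0.20, where the median over all genes was 0.0079, and the lowest unadjusted p was 0.098. In neurons Per1 and Per2 had values of -0.34 and -0.30 (limma, FDR = 1.0 for each), while Dbp and Nr1d1 were at 0.27 and 0.23. Rora in motor neurons stood at 2168 to 5656 CPM (median 4554) in females and 1364 to 2730 (median 2458) in males (0.87, SE 0.22, limma, FDR = 0.48), and its FDR over the alternatives ran from 6.1e-05 with no filter on low counts to 0.98. In the same nuclei the 3 oligodendrocyte markers summed to 90.2 to 491.7 CPM (median 207.6) in females and 64.1 to 750.6 (median 489.7) in males, with all 3 lower in females, and the 3 motor neuron markers to 1234 to 2273 (median 1891) and 666 to 1554 (median 1289), with all 3 higher. None of these markers passed the FDR, and their part in the Rora values was not tested. In microglia Hlf was higher in all 6 pairs (0.59, SE 0.22, limma, FDR = 0.58). There the astrocyte markers summed to 41.8 to 96.6 CPM in females and 18.3 to 35.9 in males. All 3 were higher in females, with a median log2 difference of 1.26, and 2 of them passed the FDR. Their part in the Hlf values was not tested.

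**Figure D4:**
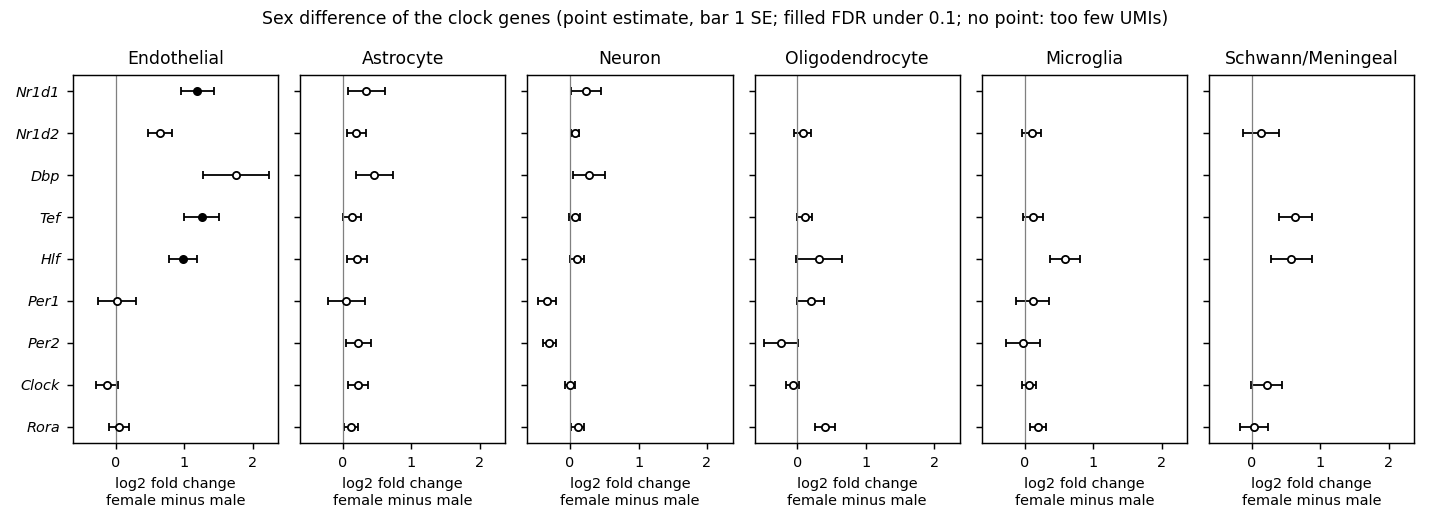
Female minus male log2 fold change of the clock genes in 6 cell types (points, limma-voom estimate; bars, 1 SE; filled points, FDR under 0.1). The filled points are Nr1d1, Tef and Hlf in endothelial cells, at 1.19, 1.26 and 0.99; genes without a point had too few UMIs to be tested in that type.

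Whether the sex effect itself differed between types was tested on the per-mouse difference of 2 types with limma over all genes, a test chosen after these values were seen. Against neurons, the endothelial effect was larger by 1.20 (SE 0.27) for Tef, 0.86 (SE 0.23) for Hlf, 1.41 (SE 0.40) for Dbp and 1.02 (SE 0.35) for Nr1d1 (unadjusted p 0.0011 to 0.016, FDR 0.78 to 1.0 by limma). Against astrocytes it was larger by 1.11 (SE 0.29) for Tef and 0.77 (SE 0.25) for Hlf (limma, FDR = 0.91 for each). Against Schwann/meningeal cells, where Tef was itself 0.63 (SE 0.24) higher in females, the Tef difference was 0.74 (SE 0.37). No member passed in any of the 4 pairs of types, where 0.00394% of all tests passed, so the sex difference is not shown to be particular to endothelial cells.

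Pools were compared last in the same fit. No member passed for pool in any type (0 of 55 tests with limma, where 1.02% of all tests passed), and 4 had an unadjusted p under 0.05, against 12% of all tests. By DESeq2, and by limma without the WT female of pool A, 1 member test passed.

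The members were then followed from mouse to mouse. Within endothelial cells Nr1d1, Nr1d2, Dbp, Tef and Hlf had positive r with one another over the 12 mice, and Arntl and Npas2 had negative r with each of them. All correlations are of log2(CPM + 1) with the pool means removed, with two-sided exact permutation within pools, chosen after the data were seen, and adjustment over all genes tested in the type; none passed that adjustment (FDR 0.83 or above for the pairs named in endothelial cells).
Nr1d1 and Dbp had r = 0.85 (permutation p = 0.00029, rho = 0.80, p = 0.0057), Nr1d1 and Nr1d2 r = 0.86 (permutation p = 0.0015, rho = 0.69, p = 0.029), and Tef and Hlf r = 0.92 (permutation p = 0.0012, rho = 0.94, p = 0.00058). Without the 2 mice farthest from the median of the first gene these became 0.78, 0.65 and 0.94.
The permutations mixed mice of the 4 groups of sex and genotype. These p-values therefore also draw on differences between the groups, such as the sex difference above. With the means of the 4 groups removed as well, the same pairs had r = 0.52, 0.45 and 0.71, and Tef with Nr1d1 went from 0.64 to -0.24. Nr1d2 with Hlf held at 0.76 and 0.66.
Arntl had r = -0.81 with Nr1d1 (permutation p = 0.043, rho = -0.70, p = 0.059), -0.72 with Nr1d2 (permutation p = 0.039, rho = -0.59, p = 0.078) and -0.83 with Hlf (permutation p = 0.0053, rho = -0.63, p = 0.046). Without the 2 farthest mice these were -0.68, -0.78 and -0.50, and with the group means removed -0.78, -0.70 and -0.41. Clock, the partner of BMAL1, was at -0.69 with Nr1d1 and -0.70 with Nr1d2 (permutation p = 0.056 and 0.063, rho = -0.57 and -0.53, p = 0.081 and 0.12), but without the 2 mice farthest in Clock these fell to -0.13 and -0.37. Per1 followed none of them (r between -0.47 and 0.31).

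**Figure D5:**
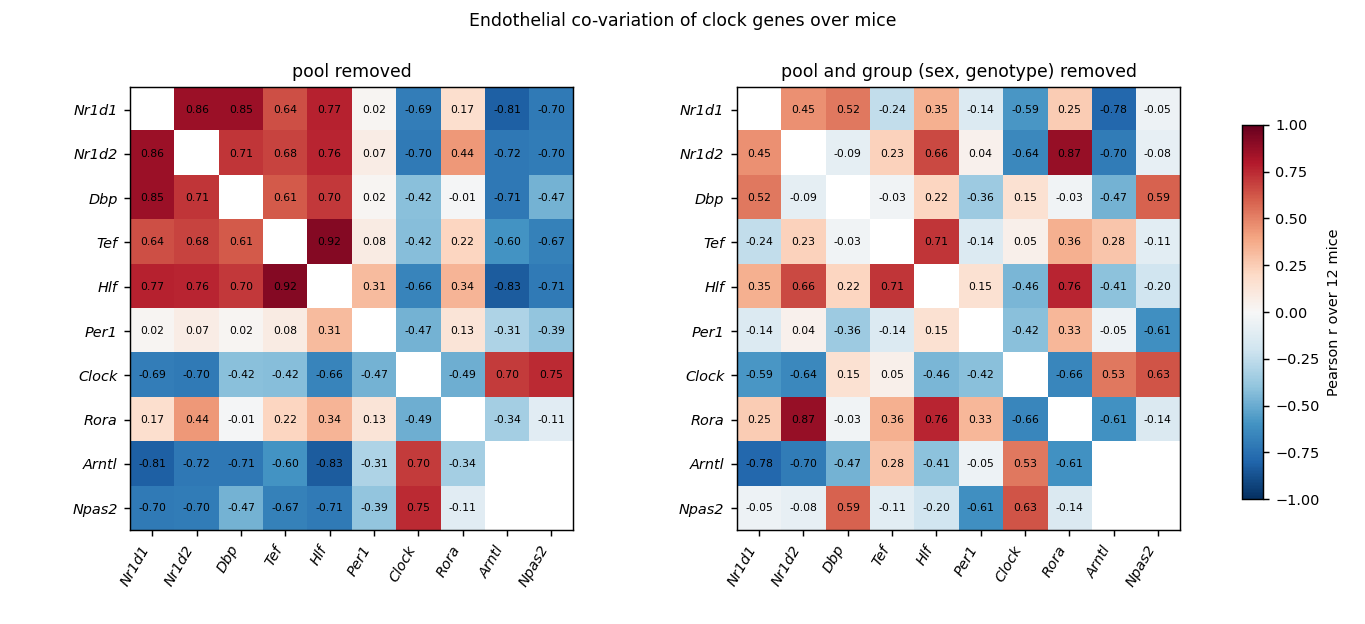
Pearson r over 12 mice between clock genes in endothelial nuclei (colour and number), with pool means removed (left) and with the means of pool and of the 4 groups of sex and genotype removed (right). Nr1d1 with Arntl stood at -0.81 and -0.78, while Tef with Nr1d1 went from 0.64 to -0.24; the cells for Arntl with Npas2 are blank since pairs of non-members were not computed.

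The genes most like Dbp in each type were, in endothelial cells, Slc16a4, Hoxb8, Ccdc107, Sc5d and Tpd52l1 (r = 0.93 to 0.89 over 12 mice), with Nr1d1 at rank 7 of 7636, Nr1d2 at 63, Hlf at 73 and Tef at 187. In neurons they were Col9a2, Gm10406, Gm16050, Cirbp and Usp11 (r = 0.99 to 0.96), with Nr1d1 at rank 1206 of 15680 and Hlf at 1873. In astrocytes they were Il18, March2, Sec16a, Spata6 and Srgap2 (r = 0.93 to 0.83), with Nr1d1 at rank 878 of 9346 and Clock at 8326. In oligodendrocytes and Schwann/meningeal cells Dbp had too few UMIs to be ranked. Means of the groups of sex and genotype were not removed for these ranks or for the medians below. A group difference shared with Dbp can therefore raise a rank. In endothelial cells Nr1d1, Nr1d2, Hlf and Tef were, like Dbp, higher in females, and the part of sex in their ranks was not tested. The genes named first in each type have the highest r of all genes ranked, so their r is high by selection. Over all pairs of members the median r was 0.19 in endothelial cells (28 pairs), 0.10 in astrocytes (36), 0.05 in neurons (36), 0.14 in Schwann/meningeal cells (10) and -0.01 in oligodendrocytes (21).
Of the pairs named in endothelial cells, Nr1d1 with Nr1d2 had r = 0.10 in neurons and -0.10 in astrocytes (permutation p = 0.82 and 0.78, rho = -0.20 and -0.07, p = 0.57 and 0.85; 0.46 and 0.02 without the 2 farthest mice), and Tef with Hlf 0.32 and 0.22 (permutation p = 0.35 and 0.52, rho = 0.35 and 0.24, p = 0.33 and 0.46; 0.54 and 0.0048 without the 2). In neurons the pairs with a permutation p under 0.05 among those named were Nr1d1 with Dbp (r = 0.68, permutation p = 0.014, rho = 0.76, p = 0.0043; 0.72 without the 2 farthest mice and 0.65 with group means removed; FDR = 0.68) and Nr1d2 against Arntl (r = -0.77, permutation p = 0.0072, rho = -0.80, p = 0.021; -0.74 and -0.66; FDR = 0.83). In astrocytes Nr1d1 and Arntl had r = 0.78 (permutation p = 0.013, rho = 0.72, p = 0.026), a sign opposite to that in endothelial cells, and 0.48 without the 2 mice farthest in Nr1d1.

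The last comparison asked whether a mouse high for a gene in 1 cell type was high in another. Over the 10 pairs of the 5 types with at least 10 nuclei in every mouse, 5 of 65 member correlations had p under 0.05, against 6.95% of 70272 over all genes, and 0 passed the adjustment, as for all genes. The median r was 0.18 for members (49 of 65 above 0) and 0.10 for all genes (61.3% above 0). Mice of a pool share preparation, so pool means were removed first. Means of the groups of sex and genotype were not removed for these values, so a group difference shared by both types can also raise r. Tef, for example, was higher in females in endothelial and in Schwann/meningeal cells (1.26 and 0.63 on the log2 scale, only the first past the FDR). The part of sex in these r values was not tested.
The highest was Tef in neurons and Schwann/meningeal cells (r = 0.73, permutation p = 0.029, rho = 0.78, p = 0.016; 0.62 without the 2 farthest mice). Tef also had r = 0.62 between endothelial and Schwann/meningeal cells (permutation p = 0.042, rho = 0.63, p = 0.032; 0.67 without the 2) and 0.62 between neurons and oligodendrocytes (permutation p = 0.045, rho = 0.59, p = 0.074; 0.44 without the 2). Per1 in astrocytes and oligodendrocytes had r = 0.69 (permutation p = 0.022, rho = 0.71, p = 0.018; 0.95 without the 2). Rora in endothelial cells and neurons had r = 0.68 (permutation p = 0.040, rho = 0.73, p = 0.023), which rested on 2 mice, since it was 0.24 without them.
Between astrocytes and endothelial cells all 8 members had r above 0, with a median of 0.29 against 0.03 for all genes, and none had a permutation p under 0.05. The member median was below that of all genes between astrocytes and neurons (0.189 against 0.202). It was also below between Schwann/meningeal cells and neurons (0.038 against 0.087) or oligodendrocytes (-0.099 against 0.043), and above in the remaining pairs of types. Nr1d1 had r = 0.06 between endothelial cells and astrocytes and 0.14 between endothelial cells and neurons (permutation p = 0.88 and 0.75, rho = 0.20 and 0.10, p = 0.61 and 0.78; 0.15 and 0.21 without the 2). Dbp was at 0.41 and 0.51 (permutation p = 0.40 and 0.25, rho = 0.36 and 0.27, p = 0.36 and 0.46; 0.65 and -0.43 without the 2).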

How the data were processed

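Single-nucleus RNA was measured by the authors with 10x Genomics v3 chemistry in 3 pools of 4 mice. Per the labels and the study's methods, reads were aligned with STAR 2.5.1b to mm10 with introns counted, UMIs were called with Cell Ranger 3.1, and nuclei were assigned to mice by hashtag in Seurat 4.0.3, dropping nuclei with ambiguous or absent hashtags. The values used were the deposited raw UMI counts per gene and nucleus; mouse, sex, genotype, pool, cell type and sub-cluster came from the deposited tables. The authors' sctransform values were not used. No per-sample column was left out (0).

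The 10 members and the lists were chosen with earlier results of these data known. Counts were summed per mouse and cell type and tested with limma 3.58.1 (voom, TMMwsp factors, filterByExpr, means of the 4 groups plus pool, the steps of the study; the minimum count of 10 and robust empirical Bayes were set here), with Benjamini-Hochberg FDR under 0.1 per type; edgeR, DESeq2 and other settings were alternatives. All 10 members are named, other clock genes as counts and in endothelial cells by value; Csnk1e, Arntl and Npas2 were named after their values were seen. Glucocorticoid-responsive and immediate early genes were kept as counts: 0 and 1 (Egr1 in astrocytes, genotype) of them passed in any contrast and type. The likeness rule took the 5 genes with the highest r with Dbp. CPM on plain totals served for levels and correlations, and CPM on TMMwsp-scaled totals for values by mouse; levels used a pseudocount of 1. Within-type correlations and the difference between types were added after seeing the data. On simulated endothelial counts the fit called 39.5% of 200 genes changed 2-fold and 99.0% of those changed 4-fold between sexes. The simulated counts had 1 fixed spread for all genes and no pool effect, and the changed genes were drawn from the more expressed ones. These shares therefore do not give the power for members with few UMIs or a wide spread, such as Dbp. P-values measure the spread between mice. No correction for free RNA in the droplets was made here. Some genes of the lists are not reported here.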

Additional observations from a re-analysis of the deposited data

How the results depend on the processing

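For the genotype effect 1 member test passed, and leaving out 1 mouse gave 1 to 2; for the sex effect 3 passed, with 0 under a minimum count of 30, 0 without the pool term (no replicate block), and 0 to 4 when 1 mouse was left out. The sex by genotype difference had 0 under every alternative run. The pool effect had 0, 1 with DESeq2 and 0 to 1 when 1 mouse was left out. For cell type levels 16 neighbour pairs passed, 7 with TMM factors over all sums, and 13 to 17 without 1 mouse; with those factors the highest type changed for Tef (astrocytes) and Clock (neurons). For neuron classes 4 passed, and 3 to 5 over the alternatives. The co-variation between types had 5 values with p under 0.05, 9 with no centring, 10 with pool and group both removed, and 1 to 6 without 1 mouse, so which correlations stand out depends on single mice: the WT females of pools A, B and C, the WT males of pools A and B, the SOD1G93A female of pool A and the SOD1G93A males of pools A and B each moved the count to 1, 2 or 3. The share over all genes was not computed with no centring or with pool and group both removed. With both removed, shuffling within pools does not keep the group means at 0, so the count of 10 is not comparable with the 5. None of the 12 gene values followed over the alternatives changed sign, and the cause of the other moves was not tested. Dbp and Npas2 in endothelial cells had no value at a minimum count of 30, and Per2 in astrocytes no adjusted p by DESeq2. The depth limits OPC, motor neurons, ependymal cells and fibroblasts most, where single mice had few nuclei.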
